A study of Rattus norvegicus with 18 samples.

Results

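Genes of cholesterol synthesis and its control were followed in rat hippocampus: Hmgcs1, Idi1, Fdps, Fdft1, Sqle, Lss and Cyp51, which are enzymes of the pathway, and Insig1, which restrains it. Every probe set whose single gene symbol in the platform annotation was one of these 8 names was taken, which gave 11 probe sets of 7 genes out of 15923 probe sets and 10412 named genes. Hmgcs1 was not analysed here. None of the 8 is a receptor for cholesterol uptake, so uptake is described below from a separate list of genes. The 18 arrays, 1 per sample, belong to a study of prenatal alcohol exposure and learning. The samples were hippocampal total RNA from animals labelled with an alcohol, an isocaloric (calorie-matched, without alcohol) or a control diet. The animals were either naive or given a training that the labels call CFC. The sample labels do not say whether the diet was fed to the mothers or to the sampled animals, so diet names below are group labels. There were 4 alcohol naive, 4 alcohol trained, 2 isocaloric naive, 4 isocaloric trained, 2 control naive and 2 control trained arrays. The labels give no strain, age, alcohol dose or litter, and are silent on whether replicates were separate animals, so the p-values rest on a spread among arrays that could be technical in part.

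Cells make cholesterol from acetyl-CoA through mevalonate, isoprenoid diphosphates and squalene, and the first sterol, lanosterol, is then trimmed and reduced to cholesterol. Transcription of these enzymes is driven by the SREBP factors, which SCAP escorts to the Golgi for cleavage when sterols are low, while INSIG proteins hold SCAP back in the endoplasmic reticulum when sterols are high. The brain makes nearly all of its own cholesterol, because lipoproteins of the blood do not cross into it, and astrocytes pass cholesterol to neurons on apolipoprotein E.

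The upstream sequences of Idi1, Cyp51 and Lss are shown. The diet differences called below are in Idi1 and Cyp51, and Lss had an isocaloric difference that did not pass the test. Each runs from 250 bases before to 50 bases after the annotated gene start (RefSeq, GRCr8), 5′ to 3′ on the gene's own strand, and capitals mark exact matches, on either strand, to CCAAT (bound by NF-Y) or to GGGCGG (the GC box bound by Sp factors). Idi1 lies at chr17:66547475-66547774 (minus strand), Cyp51 at chr4:30991443-30991742 (plus strand) and Lss at chr20:12118181-12118480 (minus strand).
Idi1: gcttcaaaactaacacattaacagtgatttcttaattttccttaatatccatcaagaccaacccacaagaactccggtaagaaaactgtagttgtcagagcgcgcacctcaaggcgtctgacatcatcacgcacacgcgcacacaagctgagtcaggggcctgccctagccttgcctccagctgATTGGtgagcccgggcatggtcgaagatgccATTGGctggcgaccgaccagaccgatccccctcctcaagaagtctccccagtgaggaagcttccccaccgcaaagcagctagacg
Cyp51: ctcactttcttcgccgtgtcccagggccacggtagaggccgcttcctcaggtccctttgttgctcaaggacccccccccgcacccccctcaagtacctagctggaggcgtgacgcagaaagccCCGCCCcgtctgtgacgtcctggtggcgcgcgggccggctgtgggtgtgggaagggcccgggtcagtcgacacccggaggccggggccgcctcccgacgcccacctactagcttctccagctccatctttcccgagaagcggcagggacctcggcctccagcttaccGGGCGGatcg
Lss: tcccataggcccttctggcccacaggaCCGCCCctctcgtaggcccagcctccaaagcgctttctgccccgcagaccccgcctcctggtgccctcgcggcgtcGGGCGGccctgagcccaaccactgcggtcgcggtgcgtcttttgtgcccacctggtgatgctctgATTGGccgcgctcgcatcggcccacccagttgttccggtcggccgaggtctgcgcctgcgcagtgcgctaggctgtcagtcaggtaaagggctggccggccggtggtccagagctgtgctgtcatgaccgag
Idi1 has CCAAT on its reverse strand (read as ATTGG), with first bases at -66 and -35 from the start, and no GGGCGG. Cyp51 has GC boxes at -127 and 41 and no CCAAT, and Lss has 1 CCAAT at -82 and GC boxes at -223 and -147. The promoter table held 6 of the 8 genes, and 5 of these 6 had a CCAAT and 5 a GC box, against 37.5% and 33.1% of all 33469 promoters of this length. Of 12 other synthesis genes in the promoter table, 10 had a CCAAT and 10 a GC box, and of 6 uptake genes 3 and 5, so the members were not set apart from these. The sterol regulatory element searched for, TCACNCCAC, was in 0 of the 6 member promoters and in 1.12% of all promoters. A match is only a description of these letters, and its absence says nothing about the factor.

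Levels are given as log2(intensity + 6.06), a scale on which changes of dim probe sets are understated, and a fold change is the difference between mean levels on it. The 11 probe sets comprised 2 each for Idi1, Fdft1, Cyp51 and Lss and 1 each for Fdps, Sqle and Insig1. A filter on mean level over all arrays (at least 5.78) left 10 of the 11 among 9520 tested, and the dim second Lss probe set (1368086_a_at, mean 3.55) was not tested. Total signal per array was 2.92e+06 to 3.13e+06, and within a group the correlation between arrays was 0.965 to 0.982. Apart from Slc1a2, the neuronal and astrocyte markers measured were at an intensity of about 543 or more on every array. Snap25 was at 2690 or more and Gfap at 1796 or more. The astrocyte marker Slc1a2 was dimmer, at 95 to 153 on its brightest probe set. Among the 18, 6 arrays from 4 groups were high in Ttr, a transcript of the choroid plexus, and 2 control arrays (naive replicate 1 and trained replicate 2) are the only ones whose processing notes name MAS5.

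**Figure D1:**
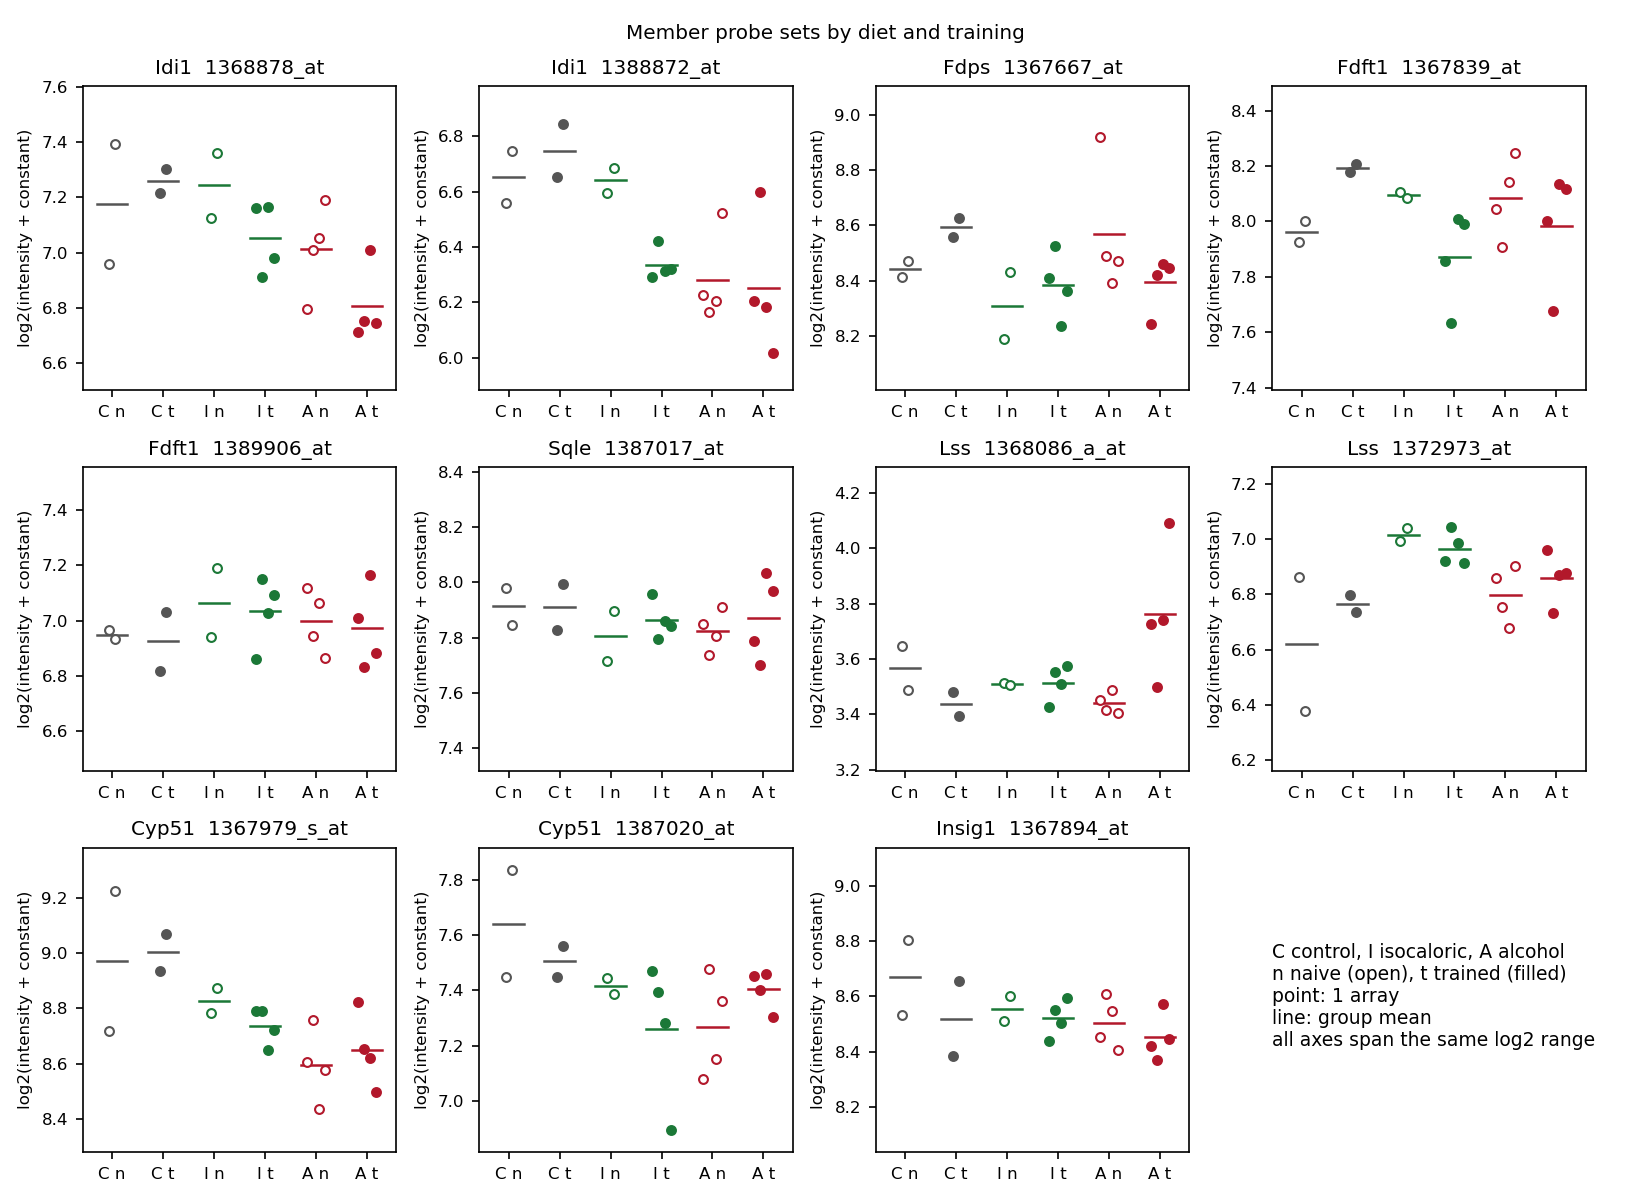
Level of each of the 11 member probe sets, as log2(intensity + 6.06), on the vertical axis against the 6 diet and training groups, with 1 point per array (open naive, filled trained) and a line at each group mean. The 4 control arrays of the Idi1 probe set 1388872_at lie between 6.56 and 6.85 and 7 of the 8 alcohol arrays lie below all of them.

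Idi1, the isomerase that makes dimethylallyl diphosphate from isopentenyl diphosphate, and Cyp51, the lanosterol demethylase, were lower in alcohol than in control arrays. Idi1 fell on both of its probe sets, by 0.43 and 0.31, and Cyp51 fell by 0.37 on its brighter probe set, in 7 or 8 of the 8 alcohol arrays. The other 5 genes with a probe set (Fdps, Fdft1, Sqle, Lss and Insig1) did not pass the test, with differences between -0.12 and 0.14. In all, 3 of 10 tested member probe sets were called, each lower, where 19.9% of all probe sets tested were called and 8.61% were called lower. The median difference of the 10 was -0.09 and 8 of them were negative, against a median of -0.00 over all probe sets.

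For the isoprenoid stage, Idi1 on probe set 1388872_at read 6.56 and 6.75 on the control naive arrays and 6.65 and 6.85 on the control trained arrays. It read 6.60 and 6.69 on the isocaloric naive arrays and 6.29, 6.42, 6.31 and 6.32 on the isocaloric trained ones. It read 6.23, 6.17, 6.21 and 6.52 on the alcohol naive arrays and 6.20, 6.60, 6.18 and 6.02 on the alcohol trained ones. The isocaloric naive arrays thus lay within the control range and the isocaloric trained arrays below it, and 1 alcohol array in each training state stood above its group. From the control to the alcohol diet the mean level went from 6.70 to 6.27 (log2 fold change -0.43, SE 0.11, limma adjusted p = 0.00971, 8 of 8 alcohol arrays below the control mean of their training state). The brighter Idi1 probe set, 1368878_at, read 6.96 and 7.39 on the control naive and 7.22 and 7.30 on the control trained arrays. On the isocaloric arrays it read 7.13 and 7.36 (naive) and 7.16, 6.91, 7.16 and 6.98 (trained). It read 6.80, 7.01, 7.05 and 7.19 on the alcohol naive arrays and 6.71, 6.75, 7.01 and 6.75 on the alcohol trained arrays. Here 4 of 8 alcohol arrays lay below every control array, and the difference was -0.31 (SE 0.10, limma adjusted p = 0.0370, 7 of 8). Group means of this probe set ran from 7.26 (control trained, SD 0.06, n = 2) through 7.24 (isocaloric naive, SD 0.17, n = 2), 7.18 (control naive, SD 0.31, n = 2), 7.06 (isocaloric trained, SD 0.13, n = 4) and 7.01 (alcohol naive, SD 0.16, n = 4) to 6.81 (alcohol trained, SD 0.14, n = 4). Each step between neighbours in that order but the last was smaller than the SD of at least 1 of its 2 groups, and the last step (-0.21 with training in alcohol arrays) was not past the threshold of the test.

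Fdps, which joins these units into farnesyl diphosphate, passed no diet test. Its probe set ranged from 8.41 to 8.63 in control, from 8.19 to 8.53 in isocaloric and from 8.24 to 8.92 in alcohol arrays, and the highest was alcohol naive replicate 1. The alcohol and control means were 8.48 and 8.52 (limma adjusted p = 0.807).

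At the squalene stage, Fdft1 (squalene synthase, the first enzyme committed to sterols) and Sqle (squalene epoxidase) showed no called difference. Fdft1 ranged from 7.92 to 8.21 in control, 7.63 to 8.11 in isocaloric and 7.68 to 8.25 in alcohol arrays on its brighter probe set, with -0.04 between alcohol and control (limma adjusted p = 0.770). Its second probe set, 1389906_at, gave 0.05 (limma adjusted p = 0.749). The 2 Fdft1 probe sets thus differed in sign, and neither difference was larger than its SE. Sqle spanned 7.83 to 7.99 in control, 7.71 to 7.96 in isocaloric and 7.70 to 8.03 in alcohol arrays, and its difference was -0.06 (limma adjusted p = 0.590).

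Lss, which closes epoxidised squalene into lanosterol, passed no averaged diet test, but on 1 of its 2 probe sets the isocaloric and control arrays did not overlap. Probe set 1372973_at read 6.86 and 6.38 on the control naive, 6.80 and 6.74 on the control trained, 6.99 and 7.04 on the isocaloric naive and 6.92, 7.04, 6.99 and 6.91 on the isocaloric trained arrays. On the alcohol arrays it read 6.86, 6.75, 6.68 and 6.90 (naive) and 6.96, 6.73, 6.87 and 6.88 (trained). All 6 isocaloric arrays were above all 4 control arrays, the only 1 of the 11 member probe sets without overlap between these diets. For so few probe sets a count of 1 is near the share of 5.85% among all probe sets tested. The difference of 0.30 (SE 0.10) did not pass the test, with a limma adjusted p = 0.0664. Alcohol arrays lay between, at 0.14 above control (SE 0.09, limma adjusted p = 0.302) and at -0.16 from isocaloric (SE 0.08, limma adjusted p = 0.255, 8 of 8). Its lowest value, 6.38, was on control naive replicate 2, and without that array the difference between isocaloric and control was 0.18 (limma adjusted p = 0.420) and that between alcohol and control was 0.01 (limma adjusted p = 0.943). The dim second Lss probe set lay between 3.40 and 3.65 on every array outside the alcohol trained group, whose values were 3.50, 3.73, 3.74 and 4.09.

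Cyp51 on probe set 1367979_s_at read 8.72 and 9.22 on the control naive, 8.94 and 9.07 on the control trained, 8.78 and 8.87 on the isocaloric naive and 8.79, 8.79, 8.65 and 8.72 on the isocaloric trained arrays. It read 8.61, 8.76, 8.43 and 8.58 on the alcohol naive arrays and 8.82, 8.65, 8.62 and 8.50 on the alcohol trained ones. In 6 of 8 alcohol arrays the level was below every control array, and the isocaloric means, 8.83 (naive) and 8.74 (trained), lay between those of the other diets. The mean went from 8.99 to 8.62 (log2 fold change -0.37, SE 0.09, limma adjusted p = 0.00760, 8 of 8). The dimmer Cyp51 probe set, 1387020_at, differed the same way by -0.24 (SE 0.11, 8 of 8) and did not pass (limma adjusted p = 0.122).

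Insig1, the endoplasmic reticulum protein that retains SCAP and is itself an SREBP target, ranged from 8.38 to 8.80 in control, 8.44 to 8.60 in isocaloric and 8.37 to 8.61 in alcohol arrays. Its highest value was on control naive replicate 2. The difference between alcohol and control was -0.12 (SE 0.07, limma adjusted p = 0.257, 7 of 8).

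**Figure D2:**
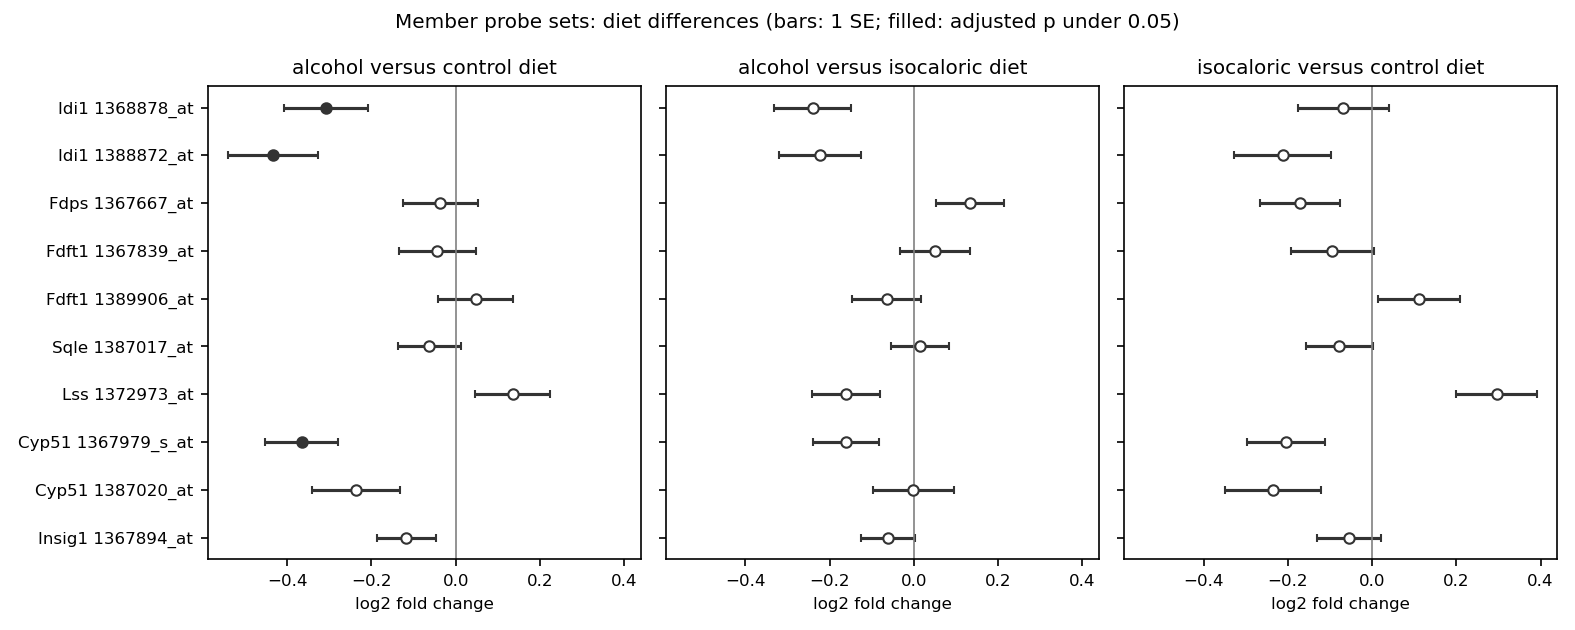
Log2 fold change (horizontal axis, bars of 1 SE) of the 10 tested member probe sets (vertical axis) in the 3 diet comparisons, with filled points where the adjusted p was under 0.05. The 3 filled points are both Idi1 probe sets and Cyp51 1367979_s_at, at -0.31, -0.43 and -0.37 between alcohol and control.

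The count of called members depended on single arrays and on arrays that stood apart. Without control naive replicate 2 it was 0, with Cyp51 1367979_s_at at -0.24 (limma adjusted p = 0.0776), Idi1 1388872_at at -0.39 (0.0716) and Idi1 1368878_at at -0.20 (0.272). Without control naive replicate 1, which leaves 1 array in that group, Cyp51 1387020_at was at -0.33 and Lss 1372973_at at 0.26. The count of called members is to be read beside the calls over all probe sets with 1 control array left out, given in the last section. Without the 6 arrays high in Ttr it was 0, with differences about as large (Cyp51 1367979_s_at at -0.38, Idi1 1368878_at at -0.37 and Idi1 1388872_at at -0.39, limma adjusted p = 0.0873, 0.146 and 0.129), and the calls over all probe sets went from 1895 to 224. Without the pair of MAS5-labelled control arrays it was 3. The log2 ratio of 3′ to 5′ actin control probe sets, a measure of RNA integrity, was 0.641 ± 0.094 (SD, n = 4) in control, 0.407 ± 0.079 (n = 6) in isocaloric and 0.397 ± 0.161 (n = 8) in alcohol arrays. With this ratio as a covariate 0 members were called, with Cyp51 1367979_s_at at -0.32 and Idi1 at -0.45 (1368878_at) and -0.49 (1388872_at). The summed intensity of 6 endothelial and mural cell markers was 502 to 552 in control and 795 to 983 in the other arrays, with Cldn5 at 1.39 higher in alcohol than in control (limma adjusted p = 9.90e-09). Hbb of blood cells was lower in alcohol arrays by -0.56 (limma adjusted p = 0.00813). The part of these differences in the result for Idi1 and Cyp51 was not tested, and in bulk RNA fewer cells of a type and less RNA per cell cannot be told apart.

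The comparison of alcohol with the isocaloric diet, which asks what alcohol adds beyond calories, called 0 of 10 members (limma, 3.06% of all probe sets called), with 2 at an unadjusted p under 0.05. Both were Idi1: 1368878_at differed by -0.24 (SE 0.09, limma adjusted p = 0.137, 8 of 8) and 1388872_at by -0.22 (SE 0.10, limma adjusted p = 0.195, 7 of 8). Of the 8 alcohol arrays, 4 on the first and 6 on the second lay below every isocaloric array, as did 7 for Lss 1372973_at and 5 for Cyp51 1367979_s_at. Some member probe sets had alcohol arrays above every isocaloric array instead. Fdft1 1367839_at had 4 above and 0 below, whereas Fdft1 1389906_at had 0 above and 1 below. Fdps and Cyp51 1387020_at each had 1 above and 0 below. The share of all probe sets with such partial separation was not computed. No member probe set was without overlap between alcohol and isocaloric arrays (0 of 11, against 1.28% of all probe sets tested), nor between alcohol and control arrays (0 of 11, against 6.38%). Cyp51 1367979_s_at was at -0.16 (limma adjusted p = 0.237), and its second probe set at -0.00. The median over the members was -0.06, and it was 0.01 when each array was centred on its own median, a scaling that also moved the median of all probe sets to 0.06. This comparison and that with control share the same 8 alcohol arrays.

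Between the isocaloric and the control diet, whose control arrays are those of the alcohol comparison, 0 of 10 members were called (limma, 7.05% of all probe sets), with Lss 1372973_at and Cyp51 1367979_s_at at an unadjusted p under 0.05. Cyp51 was at -0.20 (SE 0.09, limma adjusted p = 0.175, 6 of 6), and Idi1 was at -0.07 and -0.21 on its probe sets. Without control naive replicate 1, which leaves 1 control naive array, Lss was at 0.42 and Cyp51 at -0.33. Without both MAS5-labelled arrays they were at 0.40 and -0.30. The calls over all probe sets also changed when arrays were left out, as given in the last section.

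No member passed the test for training. Over the 3 diets 0 of 10 were called (limma, 0.0105% of all probe sets) and 0 had an unadjusted p under 0.05, with Idi1 at -0.10 and -0.08, Insig1 at -0.08 and the others between -0.05 and 0.05. Within the alcohol, isocaloric and control diets the count was 0 of 10 each time, with 0 at an unadjusted p under 0.05, and 0%, 0% and 0.0315% of all probe sets were called. The difference between the training effects in alcohol and in isocaloric arrays was called for 0 of 10 members, at an unadjusted p under 0.05 also for 0, and for 0% of all probe sets.

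Within the training states, calls again came from Idi1. In trained arrays, alcohol against control called both Idi1 probe sets lower (-0.45, limma adjusted p = 0.0436, and -0.50, limma adjusted p = 0.0388, 4 of 4 arrays each), 2 of 10 where 12.0% of all probe sets were called and 5.55% were called lower. Leaving out either control trained array, either of 2 others (alcohol trained replicate 4 and isocaloric naive replicate 2), or the arrays high in Ttr left 0 calls, so these adjusted p-values lay close to the threshold. In naive arrays the same comparison called 0 members (4.21% of all probe sets), with 3 at an unadjusted p under 0.05. These were Cyp51 at -0.38 and -0.37 (limma adjusted p = 0.0779 and 0.150) and Idi1 1388872_at at -0.37 (limma adjusted p = 0.156). Without control naive replicate 1, naive Cyp51 was at -0.63 and -0.57 on its probe sets and naive Lss at 0.42. Alcohol against isocaloric called 0 of 10 in naive arrays (0.0735% of all probe sets, 1 at an unadjusted p under 0.05) and 0 of 10 in trained arrays (0.399%, also 1). Isocaloric against control called 0 of 10 in naive (5.47%, 1 at an unadjusted p under 0.05) and 0 of 10 in trained arrays (0.515%, 3 at an unadjusted p under 0.05). Those 3 were Fdft1 1367839_at (-0.32), Cyp51 1367979_s_at (-0.26) and Idi1 1388872_at (-0.41), each in 4 of 4 arrays.

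The rest of the pathway was read from a list of 41 genes, of which 32 had a probe set (47 probe sets). Among 10 tested probe sets of other synthesis enzymes, 1 fell and 0 rose between control and alcohol, near the 8.61% and 11.3% of all probe sets called lower and higher. The probe set that fell was that of Msmo1, the methylsterol oxidase that acts after Cyp51, which went from 9.57 to 9.31 (-0.26, SE 0.06, limma adjusted p = 0.00930, 7 of 8). It remained past the threshold without control naive replicate 2 (-0.26, limma adjusted p = 0.0386) and was lost without the arrays high in Ttr (-0.31, limma adjusted p = 0.0864). Acat2, which makes the acetoacetyl-CoA used by Hmgcs1, was at -0.27 (limma adjusted p = 0.143), the mevalonate kinase Mvk at -0.15, and Dhcr7, the final reductase, at -0.04.

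The calls among regulators were in the other direction. Of 9 tested probe sets of 8 genes, 4 rose in alcohol relative to control and 0 fell, with a median of 0.18, where 11.3% of all probe sets were called higher. Srebf1, the gene of a sterol regulatory factor, rose by 0.39 (SE 0.11, limma adjusted p = 0.0221, 8 of 8) and 0.32 (SE 0.11, limma adjusted p = 0.0424, 7 of 8) on its 2 probe sets. Mbtps1, the protease that starts SREBP cleavage, rose by 0.34 (SE 0.10, limma adjusted p = 0.0235, 8 of 8). Nr1h2, the oxysterol receptor LXR beta, rose by 0.25 (SE 0.07, limma adjusted p = 0.0179, 8 of 8). It also rose against the isocaloric diet by 0.32 (SE 0.06, limma adjusted p = 0.0145, 8 of 8), a call that was lost without isocaloric naive replicate 2 (0.27, limma adjusted p = 0.125). Srebf2, the main SREBP gene of cholesterol synthesis, was at 0.18 (limma adjusted p = 0.319) and the escort protein gene Scap at 0.16 (limma adjusted p = 0.134). Each of the 4 calls against control was lost without the arrays high in Ttr, and also without control naive replicate 2, with adjusted p-values of 0.163 and 0.181 (Srebf1), 0.223 (Mbtps1) and 0.0650 (Nr1h2). Of all probe sets in that comparison, 1075 were called higher and 820 lower, and 834 higher of 1799 when arrays were centred on their medians, a scaling under which Nr1h2 had an adjusted p = 0.0525 and the weaker Srebf1 probe set 0.0704.

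**Figure D3:**
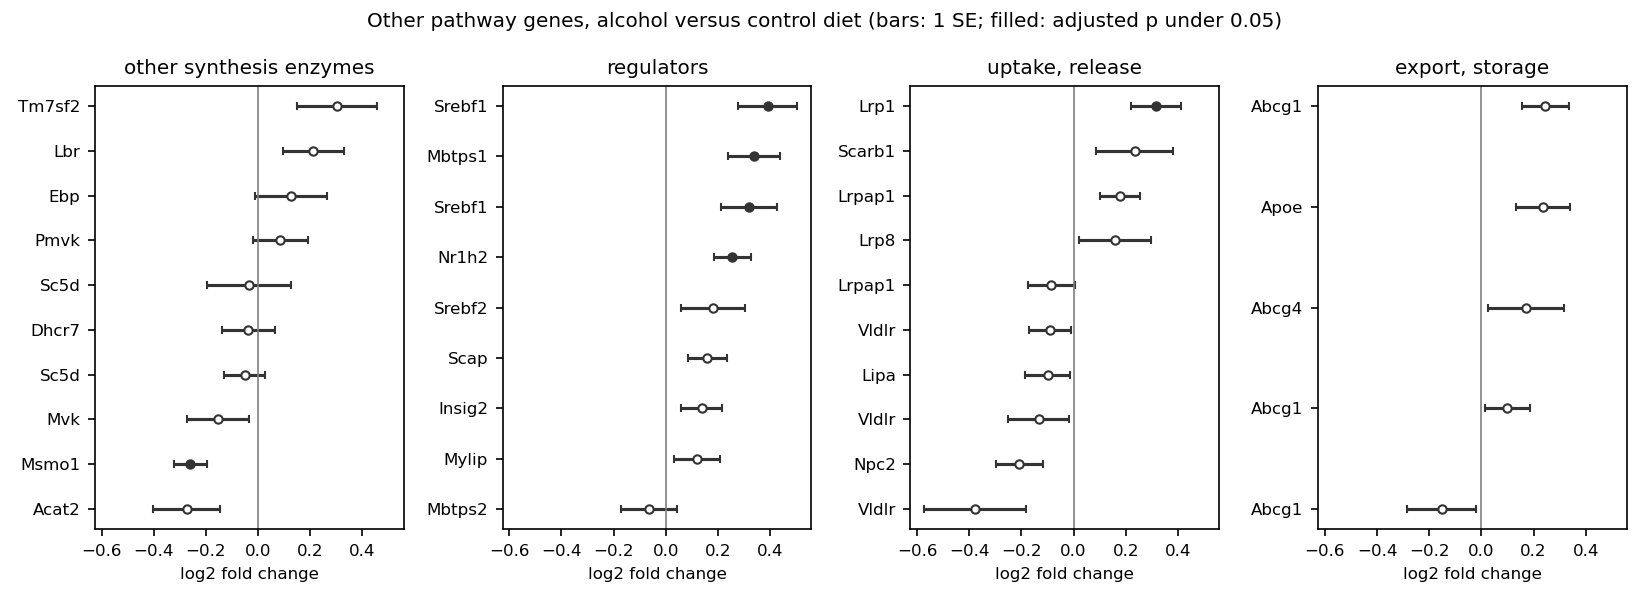
Log2 fold change between alcohol and control (horizontal axis, bars of 1 SE) of the tested probe sets of other synthesis enzymes, regulators, uptake and lysosomal release genes, and export and storage genes (vertical axes, 1 label per probe set), with filled points where the adjusted p was under 0.05. Msmo1 at -0.26 is the lower filled point, and the 5 higher ones are Srebf1 (both probe sets), Mbtps1, Nr1h2 and Lrp1.

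Of 10 tested probe sets of 7 uptake genes, 1 rose and 0 fell between control and alcohol, near the shares of all probe sets (11.3% higher and 8.61% lower). Lrp1, an endocytic receptor for apolipoprotein E particles, rose by 0.32 (SE 0.10, limma adjusted p = 0.0273, 6 of 8), and was at 0.15 without control trained replicate 2 (limma adjusted p = 0.237). In trained arrays alone 3 of 10 were called, where 12.0% of all probe sets were: 2 rose, Lrp1 (0.59, limma adjusted p = 0.0100) and 1 of 2 probe sets of its chaperone Lrpap1 (0.44, limma adjusted p = 0.0138), and 1 of 3 probe sets of the receptor Vldlr fell (-0.90, limma adjusted p = 0.0400). Export and storage genes had 0 of 5 called between control and alcohol (19.9% of all probe sets), with 2 at an unadjusted p under 0.05, and the largest was Abcg1 1387054_at at 0.25 (limma adjusted p = 0.0608). Apoe was at 0.34 against the isocaloric diet (limma adjusted p = 0.0543, 7 of 8) and rose in trained alcohol arrays against trained controls (0.55, limma adjusted p = 0.0227). Between naive arrays Abcg1 1368103_at rose between control and isocaloric (0.52, limma adjusted p = 0.0377). These pathway values within a training state were not recomputed under other settings.

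Correlations between members within groups were mostly weak. With group means removed, Pearson's r over 18 arrays was computed for the 21 pairs of 7 genes (the brightest probe set of each), and its median was 0.12, with 14 of 21 positive, against 0.00 over all pairs of probe sets tested, whose 5th to 95th percentile range was -0.52 to 0.53. The strongest pair was Sqle with Fdft1, consecutive enzymes, at r = 0.61 (Spearman's rho 0.48, two-sided permutation p = 0.0212 and 0.0778, adjusted over 21 pairs 0.446 and 0.581). It was 0.38 without alcohol trained replicates 2 and 3, so it rests partly on those arrays. The most negative pair was Insig1 with Lss at r = -0.52 (rho -0.49, permutation p = 0.228 and 0.146, adjusted 0.657 and 0.581). Without control naive replicate 2 and control trained replicate 2 it was -0.16. That leaves 1 array in each control group, with a deviation of 0, so no control array counts in this value. No pair passed the threshold by r or by rho, and 1 had an unadjusted p under 0.05. Idi1 and Cyp51, the genes called lower in alcohol than in control arrays, were at r = 0.31 within groups (rho 0.16, permutation p = 0.636 and 0.725, adjusted 0.791 and 0.846). Without control naive replicate 2 and alcohol trained replicate 3 the value was -0.08, and no control naive array counts in it. Probe sets of the same gene agreed only in part, with r within groups of 0.61 for Cyp51, 0.36 for Lss, 0.25 for Idi1 and 0.11 for Fdft1.

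**Figure D4:**
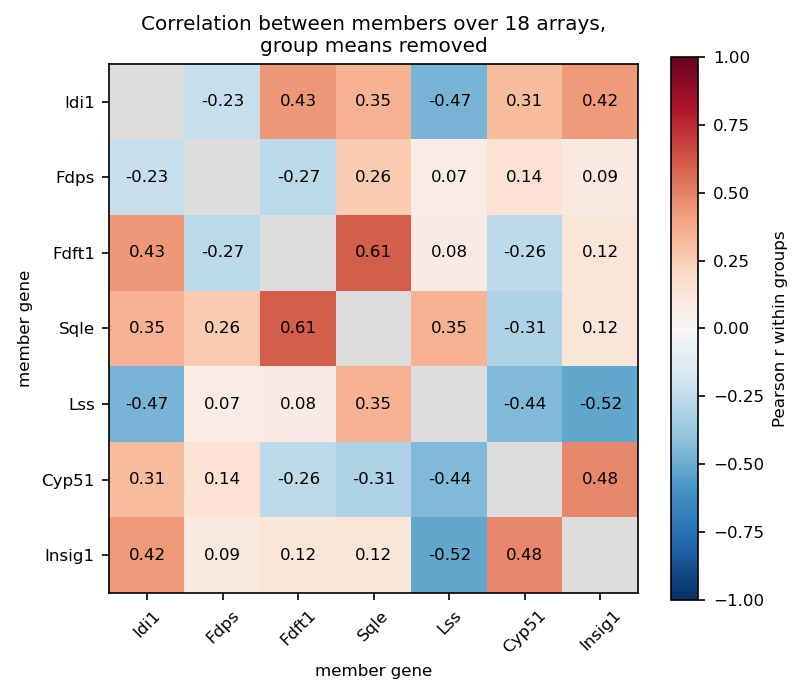
Pearson r between the 7 member genes (both axes, the brightest probe set of each) over 18 arrays after removal of group means, with colour and number giving r and the diagonal left grey. Sqle with Fdft1 (0.61) is the highest and Insig1 with Lss (-0.52) the lowest.

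The 10 genes most like the members within groups, by Pearson's r over 18 arrays with the mean standardised deviation of the 7 members, were Trappc11 (0.87), Sdhaf3 (0.82), Ube3c (0.79), Nmt1 (0.78), Tmeff1 (0.78), Gmfb (0.77), Camlg (0.77), Pip4p1 (0.75), Cacnb2 (0.74) and Rab12 (0.74). None of them is on the pathway list. The most like pathway gene was Mylip, the ubiquitin ligase of lipoprotein receptors, at 0.63 and rank 76 of 8007, and the least like was the lysosomal lipase gene Lipa at -0.70. Idi1 within groups went with the summed neuronal markers at -0.71 and with the summed microglial markers at 0.62. These were the largest in size among the correlations of the 7 members with marker sums, Ttr and RNA quality ratios. Means of the neuronal sum, higher in alcohol than in control arrays, are given above, and their part in the Idi1 difference was not tested. The other members ranged from -0.56 (Fdft1) to 0.53 (Fdps) with the neuronal sum. With the microglial sum they ranged from -0.55 (Lss) to 0.38 (Fdft1). All are descriptions over 18 arrays that share their scaling, and none was tested.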

How the data were processed

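Gene expression in 18 rat hippocampus samples was measured on 1 Affymetrix array each. The deposited values are 1 linear intensity per probe set and array. MAS5 is named for 2 samples in the submitters' processing notes; for the rest, the sources used here do not name a method. With the top and bottom 2% of an array's values removed, the mean was about 150.03 throughout, so arrays had been brought to a common level, which can hide a change in total RNA.

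Values were analysed as log2(intensity + 6.06), 6.06 being the 10th percentile of all values. Probe sets whose mean was under the 40th percentile (5.78) and the 57 Affymetrix controls were left out, and 9520 were tested with limma 3.58.1 in R 4.3.3 (lmFit on 6 group means over all 18 arrays, eBayes with trend). P-values were two-sided and adjusted by Benjamini-Hochberg over all probe sets tested, at a threshold of 0.05. Diets were compared by averaging the trained and the naive difference, and counts such as 8 of 8 give the arrays of the first-named diet on that side of the matching group mean. The fit was tested on simulated data. Genes came from the platform annotation (12789 probe sets with 1 symbol, 312 with several, 2822 with none).

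Correlations used deviations from group means, with p from 100000 permutations of arrays within groups. The members, gene lists and tests were chosen with earlier results of these data known. Every member probe set is given. Other pathway genes are named where past the threshold or among the 4 smallest p-values of an averaged comparison, with Srebf2 and Dhcr7; Acat2, Mvk and Scap were added after their values were seen. The genes most like the members are the 10 single-symbol probe sets with the highest r. Alternatives were another constant (16 or 1), filter, normalization, array weights, the groups compared alone, RNA quality ratios as covariates, a replicate block, and sets of arrays left out. Other steps used Python 3.11.15, pandas 2.3.3, numpy 2.4.6, scipy 1.17.1 and matplotlib 3.10.9.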

Additional observations from a re-analysis of the deposited data

Results flagged for a closer look

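Of 33 sets of 4 arrays (11 member probe sets in 3 groups), 2 held an array far from the other 3, where chance gives about 1 in 20. On Idi1 1368878_at, alcohol trained replicate 3 was at 7.01 against 6.71 to 6.75 on the others. On Idi1 1388872_at, alcohol naive replicate 4 was at 6.52 against 6.17 to 6.23.

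Training effects ran in opposite directions in different diets for several member probe sets, with every trained array on the same side of its naive mean in each diet. The probe sets were picked by that rule, and the share of all probe sets meeting it was not computed. The control effects rest on 2 trained and 2 naive arrays, and none of these differences was tested. Fdps was at -0.17 with training in alcohol and 0.15 in control arrays, a difference of -0.32. Idi1 1368878_at was at -0.21 in alcohol, -0.19 in isocaloric and 0.08 in control arrays, so that the differences from control were -0.29 and -0.27. Cyp51 1387020_at was at 0.14 in alcohol and -0.14 in control arrays, a difference of 0.27. Fdft1 1367839_at was at -0.22 in isocaloric and 0.23 in control arrays, a difference of -0.45. The same 4 groups give the reverse reading for Fdft1, with isocaloric against control at 0.13 in naive and -0.32 in trained arrays, a difference of 0.45. The other probe sets of Cyp51 and Fdft1 did not show opposite signs between the diets just named for each gene. With training, Cyp51 1367979_s_at was at 0.05 in alcohol and 0.03 in control arrays, but at -0.09 in isocaloric arrays (4 of 4). Fdft1 1389906_at was at -0.03 in isocaloric and -0.02 in control arrays. Idi1 1388872_at was at -0.03 in alcohol, -0.30 in isocaloric and 0.10 in control arrays, the last in 1 of 2 arrays.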

How the results depend on the processing

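The 3 members called lower between alcohol and control became 0 with the actin ratio as a covariate and 0 without the arrays high in Ttr, where the differences were -0.38 (Cyp51), -0.37 and -0.39 (Idi1), and leaving out 1 array at a time gave 0 to 5. With the replicate block it was 3. Over 36 pairs of same-numbered arrays in different groups, the correlation of their deviations ranged from -0.228 to 0.126 (median -0.026), and 4 were over 0.1. Different-numbered arrays were not compared, and pairs between groups of 2 arrays repeat one another. Whether the replicate numbers pair the samples was therefore not decided. The block lowered the count over all probe sets from 1895 to 1138. Over 30 or 31 alternatives the call was lost in 3 for Cyp51 1367979_s_at, 4 for Idi1 1388872_at and 14 for Idi1 1368878_at, and no sign changed. In the isocaloric against control comparison the 0 calls became 2 without the 2 MAS5-labelled arrays, and leaving out 1 array at a time gave 0 to 2. Alcohol against isocaloric and the averaged training comparison stayed at 0 members in each alternative run, the leave-one-out range being 0 to 0.

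For the comparisons within a training state the same alternatives, but for the fit on the compared groups alone, were added after seeing the data. The 2 calls between trained alcohol and trained control arrays became 0 with no filter, 0 with the Gapdh ratio as a covariate, 0 without the arrays high in Ttr and 0 without the MAS5-labelled arrays, and 1 with a stricter filter, median centring, the replicate block or the actin ratio, and 3 with array weights. Leaving out 1 array at a time gave 0 to 3. In naive arrays, leaving out the MAS5-labelled arrays turned 0 calls into 3 for alcohol and 2 for isocaloric against control, and leaving out 1 array gave 0 to 3 and 0 to 2. Where an alternative leaves a control group with 1 array, that array is assumed to vary like the other groups. The cause of these changes was not tested.

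The pathway genes were run through the same alternatives, also added after seeing the data. The call against control was lost in 1 of 31 for Msmo1, 7 for Mbtps1, 7 for Lrp1, 8 for Nr1h2, and 6 and 19 for the Srebf1 probe sets, with no change of sign. The median correlation between members, 0.12, lay between 0.07 and 0.22 with 1 array left out and was 0.28 with median centring. In groups of 2 arrays, leaving out 1 also gave the other a deviation of 0. Over all probe sets, the 1895 calls between alcohol and control became 979 with array weights, 315 with the actin ratio, 224 without the arrays high in Ttr and 580 to 3024 with 1 control array left out. The 291 between alcohol and isocaloric (140 higher) became 632 (559 higher) with median centring, 1207 with array weights, 550 with the compared groups alone, 25 with the Gapdh ratio, 3 without the arrays high in Ttr, 550 without the MAS5-labelled arrays and 15 to 651 with 1 array left out. The 671 between isocaloric and control (404 higher) became 446 with no filter, 1214 (232 higher) with median centring, 172 with the compared groups alone, 418 with the replicate block, 38 with the actin ratio, 30 without the arrays high in Ttr, 1832 without the MAS5-labelled arrays and 81 to 2362 with 1 array left out. The 1 training call became 24 without the MAS5-labelled arrays and 0 to 123 with 1 array left out. The number of arrays, 4 in the control diet, limits the precision of each control comparison.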
